A study of Homo sapiens with 12 samples.

Results

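The 10 genes described here encode Notch receptors (NOTCH1, NOTCH2, NOTCH3), Notch ligands (DLL1, DLL3, JAG1, JAG2) and transcriptional targets of the pathway (HES1, HEY1, HEY2). They were taken by gene name from the 58575 usable genes of the count table and the 60617 genes of the TPM table. The list was drawn up with earlier results of these data known. Counts of called members are therefore set beside all genes as a description only. All 10 had a row in both tables. RNA-Seq was measured in 12 libraries of 201B7, an established human iPSC line, in 4 culture conditions with 3 libraries each, all harvested on Day 5. Cond 1 was the control in StemFit medium. Cond 2, a low nutrient culture, received StemFit that had been heated at 56 °C for 30 min. Cond 3, a differentiation culture, received a DMEM medium with 10% FBS. Per the paper, cells of Cond 2 met the heated medium from Day 2 and those of Cond 3 met FBS on Day 4. The length of exposure thus differed along with the medium. Cond 4, a physical stimulus, was pipetted 20 times at passaging and was then kept in the control medium. All 4 conditions shared the same line, with no genetic change between them, so every result concerns a single iPSC line. Nothing in the sources places the 3 libraries of a condition in separate derivations of the line, and p-values measure the spread between these libraries, which may be technical.

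Notch receptors sit in the plasma membrane and are bound by ligands of the Delta-like and Jagged families on the neighbouring cell. Ligand binding leads to cleavage of the receptor by ADAM proteases and by gamma-secretase, and the released intracellular domain enters the nucleus, where it joins the DNA-binding protein RBPJ and a Mastermind co-activator and turns on genes such as those of the HES and HEY families. HES and HEY proteins are repressors of the basic helix-loop-helix family, many of whose targets are proneural genes. In pluripotent cells the pathway is known mainly for its part in the choice of fate once differentiation starts.

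The count total per library lay between 16441148 and 21871503, and no library stood apart by its depth. For every pair of replicates the chi-square per gene was above what counting noise gives (3.99 to 9.42), so none was counted as a duplicate. The iPSC label was checked on 10 markers, of which 10, 9, 10 and 10 had a mean of at least 1 TPM in Cond 1 to Cond 4. NANOG averaged 45.9 TPM in Cond 1, 22.9 in Cond 2, 10.5 in Cond 3 and 46.6 in Cond 4, whereas POU5F1, the other defining marker, averaged 1.32, 0.592, 1.20 and 1.19 TPM. The POU5F1 libraries of Cond 2 (0.412 to 0.789 TPM) lay below those of Cond 1 (1.03 to 1.57 TPM). The paper found most control cells positive for its protein OCT4 by immunostaining. POU5F1 values this low are therefore hard to read as a level of expression, and why they were low was not tested. SOX2, of the same 10 markers, went the other way, averaging 908, 1304, 1263 and 960 TPM in Cond 1 to Cond 4. At an adjusted p-value under 0.05 by edgeR, 3 of the 10 were higher and 5 lower in Cond 2, against 10.8% and 10.1% of all genes tested. In Cond 3, 4 were higher and 4 lower, against 19.5% and 18.8%. The labels name skin as the source tissue, and the paper gives skin fibroblasts as the source cells. The keratinocyte markers KRT5 and TP63 did not exceed 0.0847 and 0.0504 TPM in any library, which does not bear on fibroblasts. Fibroblast markers were mixed, since COL1A1 and THY1 averaged 246 and 141 TPM in Cond 1 while DCN stayed at or below 0.0337 TPM.

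The promoters of HES1 and HEY2 are shown first, because these targets had the largest rise and the largest fall that passed the test among the 10 genes in Cond 2. A promoter window, as given by RefSeq on GRCh38.p14, covered 250 bases before to 50 bases after the start of the gene, and a window was matched by gene symbol for 7 of the 10 genes. The windows were searched on both strands for GTGGGAA, a common form of the RBPJ binding word, and for its core TGGGAA, which lies within it. In the sequences, written 5′ to 3′ on the forward strand, capitals mark each TGGGAA and each TTCCCA, its reverse complement. The HES1 sequence is chr3:194135898-194136147 and ends at the base before the start.
HES1: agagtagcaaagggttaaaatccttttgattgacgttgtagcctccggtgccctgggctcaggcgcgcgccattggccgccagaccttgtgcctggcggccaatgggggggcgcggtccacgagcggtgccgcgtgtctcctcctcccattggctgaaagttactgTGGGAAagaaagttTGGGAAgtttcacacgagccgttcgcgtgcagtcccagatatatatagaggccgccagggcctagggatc
The HEY2 sequence is chr6:125749382-125749634 and ends 3 bases after the start that RefSeq gives, which lies inside the GENCODE gene.
HEY2: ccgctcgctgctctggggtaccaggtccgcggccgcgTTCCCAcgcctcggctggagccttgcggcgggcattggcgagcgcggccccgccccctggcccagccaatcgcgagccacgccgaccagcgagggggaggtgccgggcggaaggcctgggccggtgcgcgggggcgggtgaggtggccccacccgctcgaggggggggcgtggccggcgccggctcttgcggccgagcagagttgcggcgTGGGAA
In HES1, GTGGGAA was found once on the forward strand, from -85 to -79 relative to the start, and a second core TGGGAA stood at -70 to -65. In HEY2, GTGGGAA was found 2 times, on the reverse strand from -213 to -207 and on the forward strand from -4 to 3. Among 35116 promoter windows of the same length, 6.25% held GTGGGAA and 24.0% held TGGGAA. Neither word was present in the windows of NOTCH1, NOTCH2, NOTCH3, JAG1 and JAG2. A match is a description of the letters and not of binding, which was not measured in these data.

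The 3 receptor genes were expressed in every library. Values below are TPM, which divides the reads of a gene by its length and scales every library to the same sum, so that levels can be set side by side between genes. NOTCH3 (ENSG00000074181, chr19:15159038-15200995 on GRCh38, reverse strand) was the most abundant receptor, at 145, 134 and 144 TPM in Cond 1, 208, 205 and 217 in Cond 2, 170, 166 and 161 in Cond 3, and 137, 122 and 135 in Cond 4. The libraries of Cond 2 were the highest for NOTCH3, those of Cond 3 came next without overlap on either side, and Cond 1 and Cond 4 overlapped at the bottom. NOTCH1 (ENSG00000148400, chr9:136494433-136546048, reverse strand), the receptor best known from T cell development, had 71.5, 67.4 and 69.2 TPM in Cond 1, 81.1, 74.8 and 85.5 in Cond 2, 55.2, 62.8 and 59.9 in Cond 3, and 62.2, 65.5 and 67.7 in Cond 4. For NOTCH1 the order of the means was Cond 3, Cond 4, Cond 1 and Cond 2, and only the last step, from Cond 1 to Cond 2, was free of overlap. NOTCH2 (ENSG00000134250, chr1:119911553-120100779, reverse strand) was the least abundant of the 3, at 18.3, 16.8 and 17.3 TPM in Cond 1, 22.4, 26.2 and 27.0 in Cond 2, 24.3, 26.1 and 23.5 in Cond 3, and 15.7, 17.6 and 18.7 in Cond 4. NOTCH2 fell into 2 levels, a lower one shared by Cond 1 and Cond 4 and a higher one shared by Cond 2 and Cond 3. Of the 31-base words of NOTCH2 transcripts, 11.0% occur in other genes and 9.08% occur in NOTCH2NLA, a partial copy to which at most 2 reads were assigned, and how reads with several matches were counted is not given in the sources used here.

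**Figure D1:**
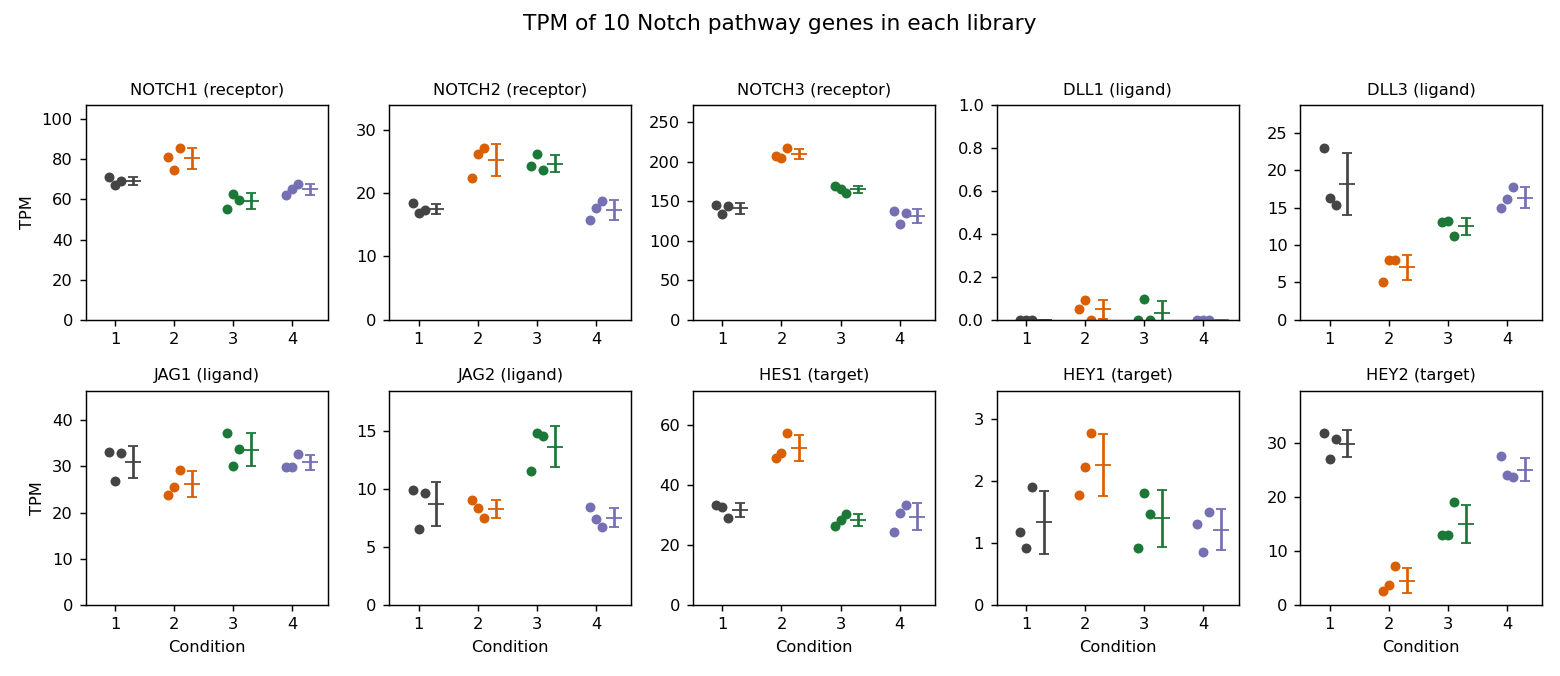
TPM (vertical axis, linear, from 0) of each of the 10 genes by condition (horizontal axis, Cond 1 to Cond 4). Each point is a library, and the cross bar and whiskers beside the points are the mean and SD of 3 libraries. HEY2 and DLL3 are lowest in Cond 2, HES1 and NOTCH3 are highest there, and Cond 4 overlaps Cond 1 for all 10 genes.

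Among the ligand genes, JAG1 (ENSG00000101384, chr20:10637684-10673999, reverse strand), which encodes an activating ligand, had the highest level in all 4 conditions. It had 33.0, 26.9 and 32.9 TPM in Cond 1, 23.7, 25.6 and 29.1 in Cond 2, 37.1, 30.0 and 33.8 in Cond 3, and 29.9, 29.9 and 32.8 in Cond 4. The Cond 2 libraries lay below those of Cond 4 and Cond 3, while 1 of the 3 lay within the range of Cond 1. DLL3 (ENSG00000090932, chr19:39498895-39508481, forward strand), a divergent Delta-like protein that resides largely inside the cell and is known as an inhibitor of the pathway rather than an activator, had 23.0, 16.3 and 15.4 TPM in Cond 1, 5.06, 8.03 and 7.93 in Cond 2, 13.1, 13.3 and 11.2 in Cond 3, and 15.0, 16.1 and 17.8 in Cond 4. All Cond 2 libraries were below all others, those of Cond 3 were below Cond 1 and Cond 4, and replicate 1 of Cond 1 stood above its 2 partners. JAG2 (ENSG00000184916, chr14:105140982-105168824, reverse strand), the second Jagged ligand, had 9.96, 6.56 and 9.66 TPM in Cond 1, 9.03, 8.35 and 7.50 in Cond 2, 11.6, 14.8 and 14.6 in Cond 3, and 8.43, 7.46 and 6.74 in Cond 4. Only Cond 3 stood apart for JAG2, above the other 3 conditions, which overlapped one another.

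DLL1 (ENSG00000198719, chr6:170282206-170306565, reverse strand), the archetypal Delta-like ligand, was counted with 0 reads in 9 of the 12 libraries and with 1 or 2 reads in the other 3, at most 0.0956 TPM, and did not pass the filter on low counts. This level cannot be read as a level of expression. Of the 31-base words of DLL1 transcripts, 91.9% are repeated on the alternate haplotype sequences of GRCh38 (261 in all), against at most 1.63% for the other 9 genes. FAM120B, on the opposite strand and overlapping 9.69% of the exon bases of DLL1, likewise had 0 to 3 reads. The receptor NOTCH4 (91.4% of words) and the target HES5 (95.5% of words) had 0 reads in every library. Whether the alignment used those sequences was not tested. The marker genes, POU5F1 among them, were not searched for such words.

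The target genes did not move together. HES1 (ENSG00000114315, chr3:194136148-194138732, forward strand), the repressor most widely used as a readout of Notch activity, had 33.3, 32.5 and 28.8 TPM in Cond 1, 49.0, 50.4 and 57.1 in Cond 2, 26.3, 28.1 and 30.4 in Cond 3, and 24.3, 30.6 and 33.1 in Cond 4. Only the Cond 2 libraries stood apart, above the other 9. HEY2 (ENSG00000135547, chr6:125747664-125761269, forward strand), a related repressor known from the heart and blood vessels, had 31.8, 27.0 and 30.8 TPM in Cond 1, 2.65, 3.65 and 7.18 in Cond 2, 13.0, 13.0 and 19.1 in Cond 3, and 27.6, 24.1 and 23.7 in Cond 4. Here the Cond 2 libraries were the lowest, those of Cond 3 lay between, and Cond 4 and Cond 1 overlapped at the top. Behind these levels stood 343 to 485 reads per library in Cond 1, 36 to 93 in Cond 2 and 191 to 272 in Cond 3. HEY1 (ENSG00000164683), the third repressor, had few reads, with 14 to 43 per library and means of 1.34 ± 0.510, 2.26 ± 0.495, 1.39 ± 0.454 and 1.22 ± 0.333 TPM (SD, n = 3) in Cond 1 to Cond 4. Neighbouring conditions in the order of the HEY1 means overlapped throughout.

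The first comparison asked how these genes differed after culture in the heated medium, which is labelled low nutrient. In Cond 2, HES1, NOTCH2 and NOTCH3 rose and HEY2, DLL3 and JAG1 fell. The fall of HEY2 was the largest change of any of the 10 genes in any comparison with Cond 1, and HES1, a target in the same family, changed in the opposite direction. In bulk RNA, fewer cells that express a gene and less RNA per cell cannot be told apart. By edgeR's quasi-likelihood test, adjusted over 17747 genes, HEY2 was 7.14-fold lower, with a log2 fold change of -2.84 (SE 0.220, adjusted p = 1.43e-09), from 29.9 ± 2.51 to 4.49 ± 2.38 TPM (SD, n = 3). DLL3 was 2.76-fold lower, with a log2 fold change of -1.46 (SE 0.178, adjusted p = 1.56e-06 by edgeR), from 18.2 ± 4.14 to 7.01 ± 1.68 TPM. HES1 was 1.56-fold higher, with a log2 fold change of 0.64 (SE 0.115, adjusted p = 2.17e-04 by edgeR), from 31.5 ± 2.44 to 52.2 ± 4.29 TPM. These 3 genes were without overlap between the conditions. The receptors changed less, with NOTCH3 1.40-fold higher (log2 fold change 0.49, SE 0.0532, adjusted p = 3.24e-07 by edgeR) and NOTCH2 1.36-fold higher (log2 fold change 0.44, SE 0.0704, adjusted p = 5.95e-05 by edgeR). JAG1 was 1.26-fold lower (log2 fold change -0.33, SE 0.0881, adjusted p = 0.00796 by edgeR), with overlapping TPM. The JAG1 call was lost without replicate 1 of Cond 1 (log2 fold change -0.29, adjusted p = 0.0505 by edgeR), without replicate 3 of Cond 1 (log2 fold change -0.28, adjusted p = 0.0577 by edgeR) and in all 3 fits of limma on TPM (adjusted p from 0.140 to 0.297).

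NOTCH1, JAG2 and HEY1 were not called in Cond 2. The log2 fold change of NOTCH1 was 0.13 (SE 0.0626, adjusted p = 0.161 by edgeR), although its 3 Cond 2 libraries lay above those of Cond 1 in TPM. The median of all genes on the TPM scale lay 0.084 (log2) higher in Cond 2 than after the TMM normalization of the counts. The log2 fold changes of JAG2 and HEY1 were -0.16 (SE 0.149) and 0.65 (SE 0.387). In all, 6 of the 9 genes tested were called, against 20.9% of all genes tested. Of these, 3 of 9 were higher, against 10.8% of all genes, and 3 of 9 lower, against 10.1%. A fold change above 2 was reached by 2 of 9, HEY2 and DLL3, against 4.34% of all genes. The TPM of the conditions did not overlap for 6 of 9, against 35.7% of all genes. The median absolute log2 fold change was 0.49 for the 9 genes and 0.21 for all genes.

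The second comparison asked what the differentiation medium did. In Cond 3, NOTCH2, NOTCH3 and JAG2 rose, and NOTCH1, DLL3 and HEY2 fell, while HES1, HEY1 and JAG1 were not called. HEY2 was 2.03-fold lower, from 29.9 ± 2.51 to 15.0 ± 3.51 TPM (SD, n = 3), with a log2 fold change of -1.02 (SE 0.190, adjusted p = 1.67e-04 by edgeR). JAG2 was 1.53-fold higher, from 8.73 ± 1.88 to 13.7 ± 1.79 TPM, with a log2 fold change of 0.61 (SE 0.145, adjusted p = 0.00178 by edgeR). The receptors split, since NOTCH2 was 1.38-fold higher (log2 fold change 0.47, SE 0.0703, adjusted p = 1.44e-05 by edgeR) and NOTCH3 1.15-fold higher (log2 fold change 0.20, SE 0.0532, adjusted p = 0.00395 by edgeR), while NOTCH1 was 1.19-fold lower (log2 fold change -0.25, SE 0.0629, adjusted p = 0.00263 by edgeR). The NOTCH1 call was lost in limma without the minimum of 1 TPM (adjusted p = 0.0652). DLL3 was 1.48-fold lower (log2 fold change -0.57, SE 0.168, adjusted p = 0.0102 by edgeR), and this call depended on single libraries. Without replicate 1 of Cond 1, the highest for DLL3, its log2 fold change was -0.37 (adjusted p = 0.114 by edgeR), and without replicate 3 of Cond 3 it was -0.50 (adjusted p = 0.0508 by edgeR). The DLL3 call was also lost in limma on log2(TPM + 0.1) (adjusted p = 0.0566) and in limma without the minimum of 1 TPM (adjusted p = 0.117). The log2 fold changes of HES1, JAG1 and HEY1 were -0.18 (SE 0.118), 0.091 (SE 0.0870) and 0.014 (SE 0.399).

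In Cond 3 against Cond 1, 6 of the 9 genes tested were called, against 38.4% of all genes tested. Of these, 3 of 9 were higher, against 19.5% of all genes, and 3 of 9 lower, against 18.8%. The TPM of the conditions did not overlap for 6 of 9, against 48.6% of all genes. HEY2 alone passed a fold change of 2, against 8.16% of all genes. The median absolute log2 fold change of the 9 genes, 0.25, was below that of all genes, 0.30.

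**Figure D2:**
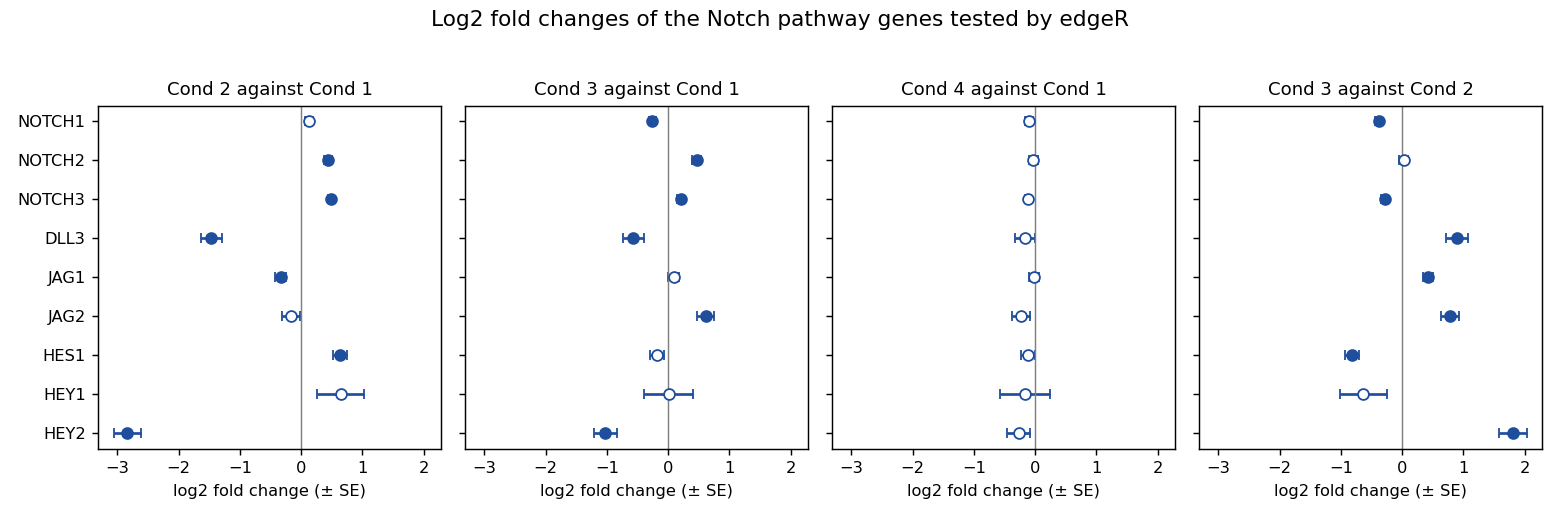
Log2 fold change (horizontal axis) of the 9 genes tested (rows) in each of the 4 comparisons, with whiskers for the SE. Filled points are genes called at an adjusted p-value under 0.05 by edgeR and open points were not called. HEY2 in Cond 2 lies farthest from 0, at -2.84, and all 9 points for Cond 4 are open and lie between -0.27 and -0.018.

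Cond 2 and Cond 3 were also set against each other directly, since the comparisons with Cond 1 share the control libraries. These conditions differ in medium and in length of exposure, which cannot be told apart here. In Cond 3, all 3 tested ligands and HEY2 were higher than in Cond 2, while NOTCH1, NOTCH3 and HES1 were lower. HEY2 was 3.51-fold higher, with a log2 fold change of 1.81 (SE 0.226, adjusted p = 1.12e-06 by edgeR). DLL3 was 1.86-fold higher (log2 fold change 0.90, SE 0.180, adjusted p = 3.79e-04 by edgeR), JAG2 1.71-fold higher (log2 fold change 0.78, SE 0.146, adjusted p = 1.90e-04 by edgeR) and JAG1 1.34-fold higher (log2 fold change 0.42, SE 0.0878, adjusted p = 5.03e-04 by edgeR). HES1 was 1.77-fold lower (log2 fold change -0.82, SE 0.115, adjusted p = 5.42e-06 by edgeR), NOTCH1 1.30-fold lower (log2 fold change -0.38, SE 0.0628, adjusted p = 4.15e-05 by edgeR) and NOTCH3 1.22-fold lower (log2 fold change -0.28, SE 0.0530, adjusted p = 1.72e-04 by edgeR). The JAG1 call was lost in limma without the minimum of 1 TPM (adjusted p = 0.0627). NOTCH2, which had risen in both conditions, differed between them by 0.026 on the log2 scale (SE 0.0695, adjusted p = 0.803 by edgeR). In this comparison 7 of 9 genes were called, against 38.2% of all genes tested, with 4 of 9 higher, against 19.0%, and 3 of 9 lower, against 19.2%. The TPM of 7 of 9 did not overlap, against 47.6% of all genes. One gene, HEY2, passed a fold change of 2, against 8.77% of all genes. The median absolute log2 fold change was 0.63 for the 9 genes and 0.30 for all genes.

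The third comparison asked whether pipetting at passaging changed these genes. In Cond 4, 0 of the 9 genes tested were called, against 0.0282% of all genes tested, and DESeq2 and limma also called 0. At an unadjusted p-value under 0.05, edgeR had 1 of 9, NOTCH3, with a log2 fold change of -0.12, against 6.21% of all genes. The log2 fold changes ran from -0.27 for HEY2 to -0.018 for JAG1, with SEs from 0.0534 to 0.405 and adjusted p-values from 0.800 to 0.988. The TPM of Cond 4 overlapped that of Cond 1 for all 9, whereas 11.9% of all genes did not overlap.

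The make-up of each group was also described from the TPM. The summed TPM of the 3 receptors was 228 ± 8.97 in Cond 1, 316 ± 12.4 in Cond 2, 249.6 ± 4.96 in Cond 3 and 214 ± 8.27 in Cond 4 (SD, n = 3). NOTCH3 made up 61.9% of it in Cond 1, 66.5% in Cond 2, 66.4% in Cond 3 and 61.4% in Cond 4, and NOTCH1 made up 30.4%, 25.5%, 23.8% and 30.5%. The receptors thus kept their order of abundance in every condition. Among the ligands, the share of DLL3 was 31.4% in Cond 1, 16.8% in Cond 2, 20.9% in Cond 3 and 29.8% in Cond 4, and that of JAG1 was 53.7%, 63.0%, 56.1% and 56.4%. JAG2 held 15.0%, 20.2%, 22.9% and 13.8%, so that its mean stood above that of DLL3 in Cond 2 and Cond 3 and below it in Cond 1 and Cond 4. In Cond 2 and Cond 3 the order was not the same in all libraries, since JAG2 was below DLL3 in replicate 3 of Cond 2 (7.50 against 7.93 TPM) and in replicate 1 of Cond 3 (11.6 against 13.1 TPM).

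The targets showed the widest shift. HES1 and HEY2 made up similar shares in Cond 1, at 50.3 ± 3.49% and 47.6 ± 2.72%, whereas in Cond 2 HES1 made up 88.8 ± 3.34% and HEY2 7.38 ± 2.98%. In Cond 3 the shares were 63.6 ± 3.35% and 33.3 ± 3.71%, and in Cond 4 they were 52.6 ± 6.00% and 45.3 ± 5.86%. The ratio of HES1 to HEY2 TPM ran from 0.934 to 1.20 over the libraries of Cond 1, from 7.95 to 18.5 in Cond 2, from 1.59 to 2.17 in Cond 3 and from 0.882 to 1.40 in Cond 4. Cond 2 and Cond 3 thus overlapped neither each other nor Cond 1, while Cond 4 overlapped Cond 1. The summed TPM of the targets was 62.7 ± 3.13 in Cond 1, 58.9 ± 7.15 in Cond 2, 44.7 ± 5.56 in Cond 3 and 55.7 ± 2.53 in Cond 4 (SD, n = 3). The libraries of Cond 3 (40.2 to 50.9) and Cond 4 (53.2 to 58.3) lay below those of Cond 1 (60.5 to 66.3), and those of Cond 2 (53.4 to 67.0) overlapped them. This sum covers only 3 of the pathway's targets and was not tested, and 0 of the 3 were called in Cond 4. Among single genes, the TPM of 48.6% of all genes tested did not overlap in Cond 3 against Cond 1, and of 11.9% in Cond 4.

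**Figure D3:**
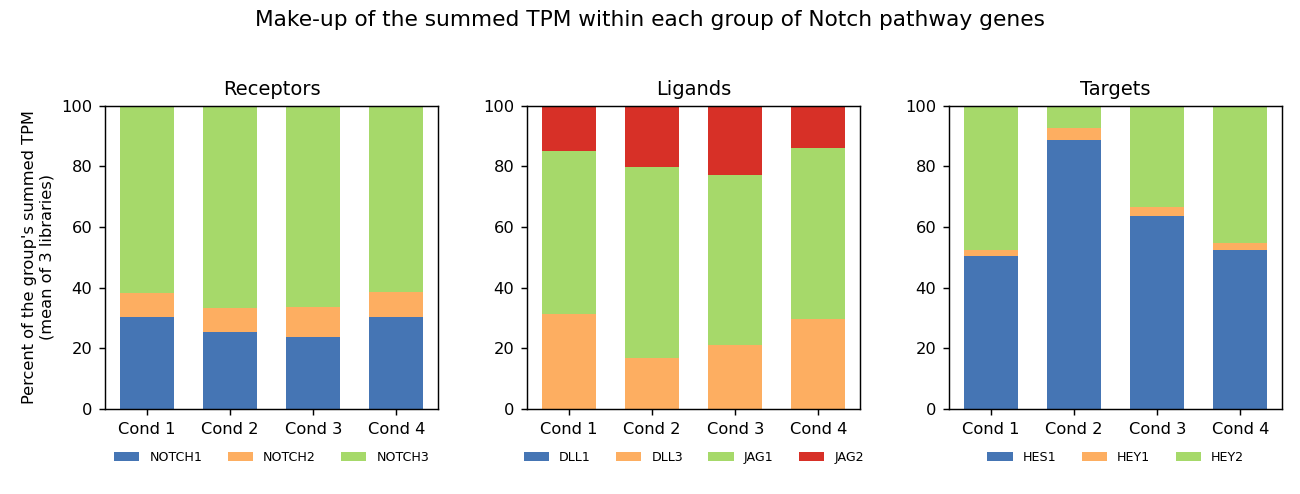
Percent of the summed TPM (vertical axis, from 0 to 100) that each gene makes up within the receptors, the ligands and the targets, by condition. Bars are means of 3 libraries, and DLL1 is too low to be seen. HEY2 shrinks from 47.6% of the target sum in Cond 1 to 7.38% in Cond 2.

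The 10 genes were set beside 70 other genes of the pathway in 5 lists, of which 60 were tested. In Cond 2 against Cond 1, 21 of 60 were called, against 20.9% of all genes. Of the 60, 16 were higher, against 10.8% of all genes, and 5 lower, against 10.1%. In Cond 3 against Cond 1, 29 of 60 were called, against 38.4% of all genes. Here 15 were higher, against 19.5%, and 14 lower, against 18.8%. The median log2 fold changes of the 60 genes were 0.11 and 0.053, near those of all genes, 0.0002 and -0.0064. In Cond 4 against Cond 1 edgeR called 0 of 60, against 0.0282% of all genes. At an unadjusted p-value under 0.05 it had 3 of 60, against 6.21% of all genes.

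Of the other receptors, ligands and HES or HEY genes, 5 of 11 were called in Cond 2, against 20.9% of all genes tested. Higher were DLK1, HES2 and HES3, and lower were DNER and NRARP. DLK1, a ligand-like protein without the domain that activates Notch, averaged 5.55 TPM in Cond 1 and 123 in Cond 2, and HES3, a repressor that was the most abundant HES gene named here, averaged 545 and 842 TPM. HES3 had a log2 fold change of 0.54 (SE 0.0743, adjusted p = 8.19e-06 by edgeR), the same direction as HES1. DNER, a membrane protein described as a Notch ligand in neurons, averaged 4.19 and 2.19 TPM, a log2 fold change of -1.03 (SE 0.233, adjusted p = 0.00229 by edgeR). NRARP, a target that feeds back on the receptor complex, averaged 112 TPM in Cond 1 and 105 in Cond 2, with a log2 fold change of -0.18 (SE 0.0650, adjusted p = 0.0490 by edgeR) and overlapping TPM. In Cond 3, 5 of 11 were called, against 38.4% of all genes, with DLK2, DNER, HES2 and NRARP higher and HES3 lower. NRARP averaged 167 TPM there, a log2 fold change of 0.54 (SE 0.0640, adjusted p = 5.44e-07 by edgeR), and HES3 429 TPM, a log2 fold change of -0.37 (SE 0.0755, adjusted p = 4.25e-04 by edgeR). DLK2 averaged 0.679 TPM in Cond 1 and 2.72 in Cond 3, and DNER 4.19 and 9.37 TPM. The HES3 and NRARP levels of Cond 2 and Cond 3 differed without overlap, HES3 being lower in Cond 3 by a log2 fold change of -0.91 (SE 0.0750, adjusted p = 1.98e-09 by edgeR) and NRARP higher by 0.72 (SE 0.0643, adjusted p = 7.26e-09 by edgeR).

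Among the genes that process receptors and ligands, 7 of 17 were called in Cond 2 (4 higher, 3 lower) and 7 of 17 in Cond 3 (2 higher, 5 lower). The shares of all genes were 20.9% and 38.4%, so that the Cond 3 share of this list, 41.2%, lay near that of all genes. LFNG, a glycosyltransferase that modifies the receptors and alters their response to Delta-like and Jagged ligands, averaged 46.6 TPM in Cond 1, 68.7 in Cond 2 and 92.5 in Cond 3. Its log2 fold changes were 0.47 (SE 0.104, adjusted p = 0.00167 by edgeR) and 0.96 (SE 0.103, adjusted p = 1.34e-07 by edgeR). Of the turnover genes, ITCH, a ubiquitin ligase, was the 1 of 10 called in Cond 2, where it was higher. In Cond 3, 3 of 10 were called, with DTX1 higher and NEDD4 and DTX2 lower. Both shares lay below those of all genes, 20.9% and 38.4%. DTX1, a ubiquitin ligase that binds the receptor, averaged 7.61 TPM in Cond 1 and 13.8 in Cond 3, a log2 fold change of 0.83 (SE 0.166, adjusted p = 3.47e-04 by edgeR).

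In the nuclear complex of co-activators and co-repressors, 8 of 18 genes were called in Cond 2, against 20.9% of all genes. All 8 were higher, against 10.8% of all genes. In Cond 3, 12 of 18 were called, against 38.4% of all genes. Of the 18, 8 were higher, against 19.5%, and 4 lower, against 18.8%. KAT2B, an acetyltransferase, averaged 0.628 TPM in Cond 1 and 3.32 in Cond 2, a log2 fold change of 2.29 (SE 0.410, adjusted p = 2.18e-04 by edgeR). TLE3, a co-repressor recruited by HES proteins, averaged 26.4 and 46.5 TPM, a log2 fold change of 0.73 (SE 0.0675, adjusted p = 2.69e-08 by edgeR). MAML3, a Mastermind co-activator, averaged 3.93 TPM in Cond 1 and 7.61 in Cond 3, a log2 fold change of 0.93 (SE 0.156, adjusted p = 5.19e-05 by edgeR). RBPJ, the DNA-binding member, averaged 93.0 TPM in Cond 1 and 83.4 in Cond 3, where it was lower by a log2 fold change of -0.19 (SE 0.0593, adjusted p = 0.0160 by edgeR), and it was not called in Cond 2. Only 4 of 9 proneural genes passed the filter on low counts. None of the 4 was called in Cond 2, and NHLH1 and NHLH2, both basic helix-loop-helix factors of neurons, were lower in Cond 3, NHLH1 by a log2 fold change of -1.13 (SE 0.370, adjusted p = 0.0187 by edgeR) from 2.33 to 1.07 TPM and NHLH2 by -0.67 (SE 0.217, adjusted p = 0.0171 by edgeR) from 2.96 to 1.90 TPM.

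**Figure D4:**
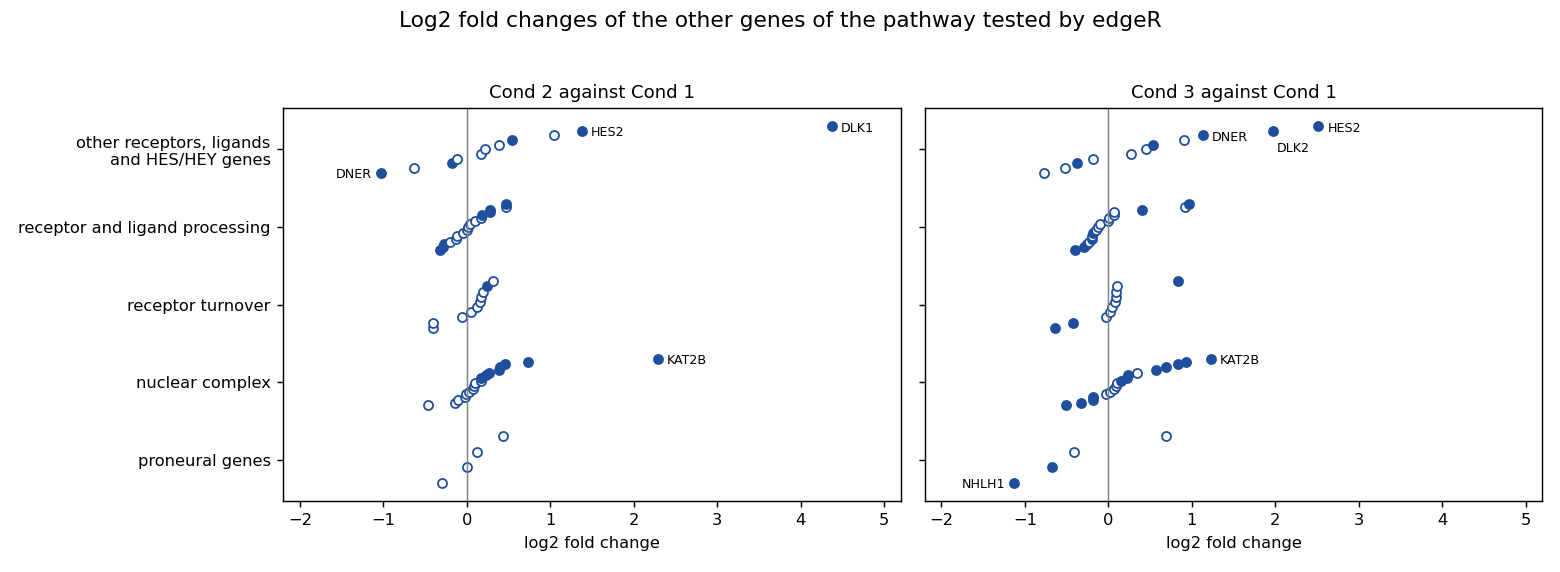
Log2 fold change (horizontal axis) of the 60 other pathway genes tested, by list (vertical axis, with genes of a list spread by rank), for Cond 2 and Cond 3 against Cond 1. Each point is a gene, filled where called at an adjusted p-value under 0.05 by edgeR, and called genes past 1 in either direction are named. DLK1 lies farthest from 0 in Cond 2, at 4.37, and HES2 in Cond 3, at 2.51.

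Cell type markers moved with the conditions as well, and genes of one list did not move together. The summed TPM of 10 neural markers was 336 to 391 in Cond 1, 349 to 373 in Cond 2, 509 to 532 in Cond 3 and 338 to 394 in Cond 4. NES made up most of this sum, averaging 341 TPM in Cond 1 and 468 in Cond 3. PAX6 and SOX1 stayed at or below 0.372 and 0.919 TPM. The means of Cond 1 and Cond 3 were 0.978 and 12.9 TPM for STMN2 and 10.9 and 26.4 for MAP2. They were 1.97 and 5.85 TPM for DCX and 0.345 and 2.00 for TUBB3. OTX1 went the other way, from 2.32 to 1.31 TPM. The sum of 10 fibroblast and mural markers was 427 to 458 in Cond 1, 267 to 319 in Cond 2, 589 to 628 in Cond 3 and 385 to 411 in Cond 4. DCN stayed at or below 0.0337 TPM, whereas COL1A1 averaged 246 TPM in Cond 1 and 436 in Cond 3, and THY1 went the other way, from 141 to 48.9. The sum of 7 endothelial markers was 83.6 to 98.0 in Cond 1, 58.4 to 65.4 in Cond 2, 91.7 to 105 in Cond 3 and 81.0 to 86.9 in Cond 4. PECAM1 and CDH5 stayed at or below 0.377 and 0.256 TPM, KDR averaged 59.7 TPM in Cond 1 and 22.1 in Cond 2, and TEK went the other way, from 25.7 to 37.1. The sum of 10 mesoderm and endoderm markers was 9.13 to 14.1 in Cond 1, 16.2 to 18.4 in Cond 2, 13.6 to 18.9 in Cond 3 and 10.5 to 14.0 in Cond 4, with TBXT and SOX17 at or below 1.39 and 0.542 TPM and CXCR4 at 0.963 TPM in Cond 1 and 3.97 in Cond 2. The sum of 8 surface ectoderm markers was 1095 to 1249 in Cond 1, 1026 to 1126 in Cond 2, 751 to 766 in Cond 3 and 1065 to 1153 in Cond 4. It was carried by EPCAM, KRT8 and KRT18, and in Cond 2 TFAP2A averaged 4.25 TPM and GATA3 7.46 TPM, against 0.142 and 0.268 in Cond 1. The part of these markers in the changes of the 10 genes was not tested.

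The gene whose log2(TPM + 1) followed each member most closely was found over the 12 libraries among 15701 genes. HEY2 was most like the long noncoding RNA LINC00678 (Pearson's r = 0.982), DLL3 most like PPP3CA (r = 0.974) and HES1 most like LAMA1 (r = 0.968). NOTCH2 was most like NSD3 (r = 0.990), NOTCH3 most like CDH9 (r = 0.973) and NOTCH1 most like FAM91A1 (r = 0.949). The ligands JAG2 and JAG1 were most like ALPK3 (r = 0.943) and ALDH3A2 (r = 0.919). These values describe libraries that share 4 conditions, so that any pair of genes with the same condition means has a high r.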

How the data were processed

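RNA was extracted from the iPSCs, and the authors prepared stranded libraries from poly(A) RNA. Per the labels, bcl2fastq 2.20.0.422, cutadapt 4.1, fastp 0.20.1, HISAT2 2.1.0 and featureCounts were used with GRCh38. The strand setting, the treatment of reads with several matches and the annotation release are not given in the sources used here. The authors deposited whole-number counts per gene without normalization, and TPM values that equal the counts divided by gene length and scaled per library (within a relative tolerance of 1e-10). Of the lines with counts, 5 were broken and left out, and 2042 genes of the TPM table have no count row.

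Counts were normalized by TMM and tested in one fit over 12 libraries with edgeR 4.0.16 (quasi-likelihood test, filterByExpr, R 4.3.3) in 17747 genes, where the study used limma on TPM. A gene was called at a Benjamini-Hochberg adjusted p-value under 0.05. The SE is the log2 fold change divided by the square root of F. Upper-quartile normalization, DESeq2 1.42.0 and no filter on counts were tried as alternatives, as were limma 3.58.1 on log2(TPM + 1) or log2(TPM + 0.1) in genes of at least 1 TPM in all libraries, limma in genes above 0 in any library, fits of 6 libraries, a block for the replicate number, a fold change above 2 and each library left out. At 16441148 to 21871503 counts per library, genes such as HEY1 had few reads, and ranges of reads cover counting error only. Tested on simulated counts for Cond 2 against Cond 1 with 200 changed genes among 17358, edgeR recovered 99 of 100 genes changed 2-fold and 100 of 100 changed 4-fold, with 17 false calls. The changed genes were drawn only from genes with more reads than HEY1. Far fewer genes changed in the simulation than the 3701 of 17747 called in Cond 2, so its rates need not hold for these data. Recovery of changes under 2-fold, or of genes with as few reads as HEY1, was not tested. Coordinates are from GENCODE on GRCh38, promoter sequences from RefSeq on GRCh38.p14.

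Besides the 10 members, the pathway genes named are, per comparison, the 6 with the largest absolute log2 fold change among called genes with a mean of at least 1 TPM and no overlap, and those of lists with 5 or fewer calls. RBPJ, the values of HES3 and NRARP in Cond 3 against Cond 2, and the marker genes other than the defining ones were added to these once their values had been seen. The members and lists were chosen with earlier results of these data known.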

Additional observations from a re-analysis of the deposited data

Results flagged for a closer look

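For 4 of the 9 genes tested, the change from Cond 1 had opposite signs in Cond 2 and Cond 3, and Cond 3 differed from Cond 2 by edgeR's quasi-likelihood test, a pattern met by 22.0% of all 17747 genes tested. Both changes share the Cond 1 libraries, and the direct comparison does not use them. HES1 had a log2 fold change of 0.64 in Cond 2 and -0.18 in Cond 3, of which the first was called, and Cond 3 lay at -0.82 against Cond 2. NOTCH1 had 0.13 and -0.25, of which the second was called, and Cond 3 lay at -0.38 against Cond 2. JAG2 had -0.16 and 0.61, of which the second was called, and Cond 3 lay at 0.78 against Cond 2. JAG1 had -0.33 and 0.091, of which the first was called, and Cond 3 lay at 0.42 against Cond 2. In none of the 4 genes were both changes against Cond 1 called, so an opposite response to the 2 media is not shown. The TPM of Cond 2 and Cond 3 did not overlap for any of the 4, as for 47.6% of all genes tested. Because the 4 were picked by a called difference between the same libraries, this lack of overlap adds no support.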

How the results depend on the processing

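With a fold change above 2 required, the members called were 2 in Cond 2, 1 in Cond 3 and 1 in Cond 3 against Cond 2. The pathway genes called were 4, 5 and 6 of 60. Of all genes tested, 4.34%, 8.16% and 8.77% met both thresholds in these comparisons. Limma in genes above 0 TPM in any library called 16 pathway genes in Cond 3 in place of 29. This setting also called fewer of all genes there, 5204 of 35717 in place of 6811 of 17747. With each library left out in turn, the members called ran from 5 to 6 in Cond 2, 5 to 6 in Cond 3, 0 to 0 in Cond 4 and 7 to 7 in Cond 3 against Cond 2, and the pathway genes called ran from 13 to 18, 21 to 26, 0 to 0 and 18 to 22. Counts over all genes are not given for the fits with a library left out. Signs turned only in log2 fold changes that were not called. In limma these were JAG1 in Cond 4 (0.0019, 0.0021 and 0.0019) and NOTCH2 in Cond 3 against Cond 2 (-0.029, -0.030 and -0.029). With a library left out, they were JAG1 (-0.0034 to 0.17) and HEY1 (-0.22 to 0.38) in Cond 3, NOTCH2 (-0.083 to 0.040), DLL3 (-0.27 to 0.026), JAG1 (-0.11 to 0.039), HES1 (-0.21 to 0.0035) and HEY1 (-0.37 to 0.20) in Cond 4, and NOTCH2 (-0.034 to 0.071) in Cond 3 against Cond 2. The cause was not tested. Of 70 single-gene values per comparison under the other alternatives, 67, 67, 67 and 66 kept their sign and their side of the threshold.

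Same-numbered replicates did not deviate together (correlations from -0.013 to 0.038), so pairing by number was not seen, although so few libraries cannot exclude it. With the replicate block, edgeR called the same number of members (6, 6, 0 and 7) and 21, 31, 0 and 24 pathway genes. Of all 17747 genes it called 3750, 6854, 5 and 6780, in place of 3701, 6811, 5 and 6777 without the block. At 14 to 43 reads per library the SE of HEY1 was 0.385 to 0.405 on the log2 scale, and DLL1 and 5 of 9 proneural genes were under the count filter and not tested.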

Other observations

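EP300 and MFNG had TPM values but no count row, and entered no comparison. EP300, an acetyltransferase of the nuclear complex, had 60.3 to 61.9 TPM in Cond 1, 71.4 to 85.9 in Cond 2, 57.9 to 68.2 in Cond 3 and 63.4 to 69.4 in Cond 4, so that all libraries of Cond 2 and Cond 4 lay above those of Cond 1. MFNG, a glycosyltransferase related to LFNG, overlapped between all conditions, with means from 6.43 to 7.83 TPM. MAML1, the founding Mastermind co-activator, had 3 to 11 reads per library although 0% of its 31-base words occur on alternate haplotype sequences, while MAML3 averaged 3.93 TPM in Cond 1.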
